A study of Laodelphax striatellus with 6 samples.

Results

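ATP-binding cassette (ABC) proteins of the small brown planthopper, Laodelphax striatellus, a sap-feeding pest of rice, are described here in insects treated with β-asarone and in untreated controls. The rows were those of the whole-body expression table whose protein description contains ATP-binding cassette, ABC transporter, an ABC letter with a number, protein white or protein scarlet. This found 44 of 59004 assembled genes, or 44 of the 25802 that carry a description, and no measured value was used in the choice. Words were matched, so rows under other ABC names were not taken in by it and are described separately, after the members. The asarone group had 3 libraries of wild-type whole bodies exposed to β-asarone, a phenylpropanoid of plants. The control group had 3 libraries of wild-type whole bodies labelled control. Dose, exposure time, sex, stage and the number of insects per library are not stated in the labels. Nor is it stated that replicate libraries were made from separate insects, so p-values reflect only how far these libraries differ, which may be technical variation.

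ABC proteins bind and hydrolyse ATP through a conserved nucleotide-binding domain. Most are membrane transporters, grouped into subfamilies by the sequence of that domain. Members of subfamilies B, C and G include exporters of drugs, insecticides and conjugated metabolites, and others of the same subfamilies carry lipids, pigment precursors or mitochondrial cargo. Subfamily A proteins handle lipids, subfamily D includes proteins that bring fatty acyl-CoA into peroxisomes, and subfamily H is found in arthropods and absent from mammals. Subfamilies E and F have no membrane-spanning part and act on the ribosome and in translation, so they are set apart here.

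By the letter in the description, 19 of the 44 rows belonged to subfamily G, 5 each to B, D and F, 4 to C, 2 to E and 1 to A. A further 2 rows were described as scarlet, a pigment-precursor transporter known from Drosophila, and 1 as an ABC transporter without a letter. No description found by these words named subfamily H, and none named white. The best database hit was a planthopper protein for 22 rows, of which 15 were from Laodelphax striatellus and 7 from Nilaparvata lugens. The other 22 rows had best hits spread over 20 species, among them corals, molluscs, a sea urchin and a rotifer. The name of a row is that of its best hit, so a member number does not establish which planthopper gene it is. The rows of 2 Trinity components, holding 5 members together, may be parts or copies of the same gene, and the reads of similar rows may be split between them.

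Levels are in TPM, each gene's length-corrected share of a library's total, which allows levels of different genes to be compared. Since TPM holds no read numbers, depth is unknown, no counting interval is given, and a value of 0 is reported as listed at 0. Rows averaging 1 TPM or more across the 6 libraries were tested, 24816 in all, and 18 of these were members. The other 26 members were below that mean. Tests were limma on log2(TPM + 1), with Benjamini-Hochberg adjustment over all tested rows and 0.05 as the threshold. Fold changes on this scale understate the change of low genes. The libraries differed in composition: the median tested row stood at 2.85 to 3.37 TPM in the asarone libraries, and at 3.36, 2.23 and 2.94 TPM in control replicates 1, 2 and 3. Control replicate 2 held the lowest value of 46.2% of all tested rows and of 9 of the 18 members. Control replicate 1 held the highest value of 26.6% of all tested rows and of 8 of the 18 members. Asarone replicate 1 held the highest value of 28.6% of all tested rows, more than any other library, and of 4 of the 18 members. Words for muscle, gut, eye, cuticle, nervous system and male germ line each matched rows with summed levels above 0 in every library, as whole bodies would give, while the words for fat body matched no row used here. Muscle rows summed to 1902 to 2896 TPM in asarone and 1995 to 2825 TPM in control libraries, and gut rows to 91.1 to 94.1 TPM in asarone and 91.4 to 92.6 TPM in control libraries. Nervous system rows summed to 3.16 to 6.31 TPM in asarone and 2.28 to 13.9 TPM in control libraries.

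**Figure D1:**
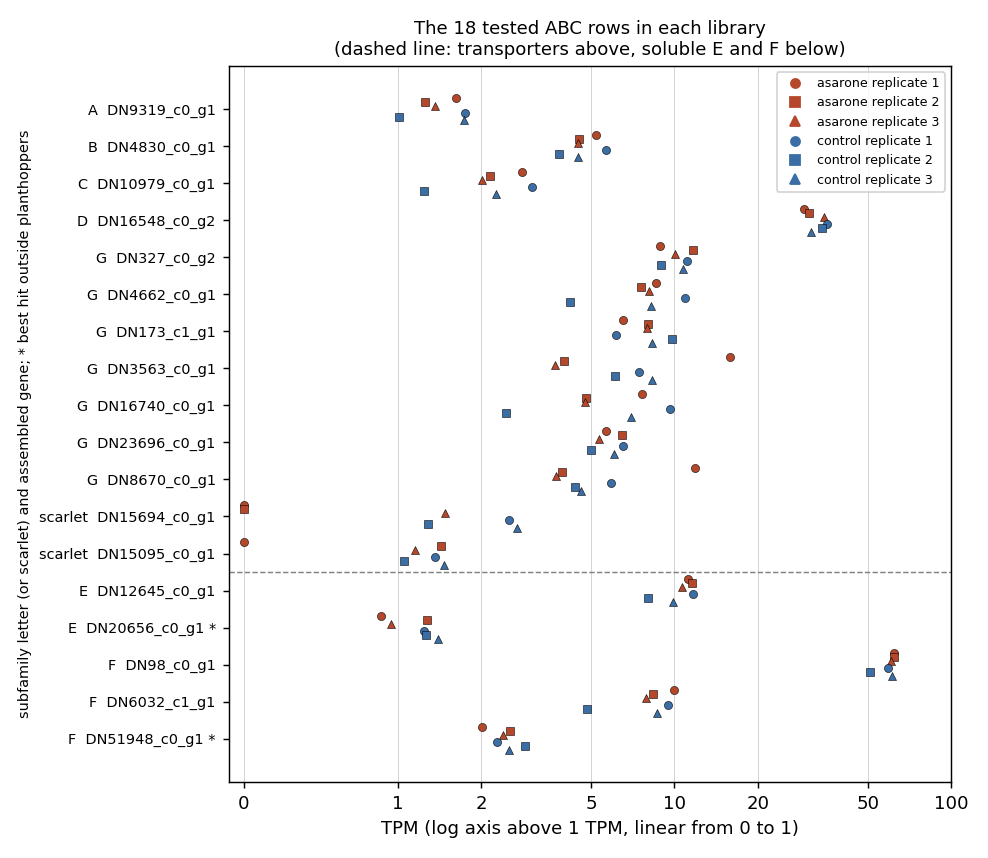
TPM of each of the 18 tested members (rows, by subfamily letter) in each of the 6 libraries (points, asarone in orange above control in blue, the shape giving the replicate). The F row DN98_c0_g1 and the D row DN16548_c0_g2 stand highest, the 2 scarlet rows reach 0 in asarone libraries, and in no row do the asarone and control points separate.

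The study set treated insects against controls to ask which detoxification genes answer to β-asarone. None of the ABC members was called higher or lower. The abundant ABCF2 and ABCD3 rows varied least between libraries, single rows of subfamily G varied several-fold between libraries, and the smallest p among members was that of a scarlet row with a lower mean in asarone insects. Of the 18 tested members 0 passed the limma threshold, where 1 of all 24816 tested rows did (0.00403%), a row that is no ABC member. At an unadjusted limma p under 0.05 there was 1 member, against 3.47% of all tested rows. The asarone and control ranges overlapped in all 18 tested members, while 8.66% of all tested rows had no overlap. In whole bodies, fewer cells that express a gene and less RNA per cell cannot be told apart.

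Among the 18 tested members the sign of the log2 change was positive for 7 and negative for 11, with a median of -0.01. Over all tested rows 62.8% were positive and the median was 0.08. After median-of-ratios scaling 6 members were positive and 12 negative, with a median of -0.09, against 50.8% positive over all tested rows. The 13 tested membrane transporters had 4 positive and 9 negative signs, and 3 and 10 after that scaling. These signs changed with single libraries, and so did the share over all tested rows. Without control replicate 1 they were 8 and 5 (61.5% positive, against 68.8% over all tested rows). Leaving out control replicate 3 also gave 8 and 5 (61.5% against 62.5%). Leaving out asarone replicate 2 or asarone replicate 3 gave 7 and 6 (53.8%, against 63.7% and 64.0%). They were 5 and 8 without asarone replicate 1 (38.5% against 56.2%), and 2 and 11 without control replicate 2 (15.4% against 42.9%). The share of the transporters was the lower one each time, which was not tested.

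Summed over all 44 rows, ABC members stood at 202, 181 and 182 TPM in asarone replicates 1, 2 and 3, and at 205, 163 and 192 TPM in control replicates 1, 2 and 3. The ranges overlapped, and control replicate 2 was lowest. Membrane transporters, all rows but E and F, summed to 113, 94.3 and 98.5 TPM in asarone libraries and to 120, 94.4 and 106 TPM in control libraries, a ratio of the means of 0.955. The soluble E and F rows summed to 88.1, 86.5 and 83.9 TPM in asarone libraries and to 84.7, 68.5 and 85.3 TPM in control libraries, a ratio of 1.08. These 7 soluble rows made up 43.6%, 47.8% and 46.1% of the members' TPM in asarone libraries, and 41.3%, 42.0% and 44.4% in control libraries. The shares of the groups overlapped too.

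**Figure D2:**
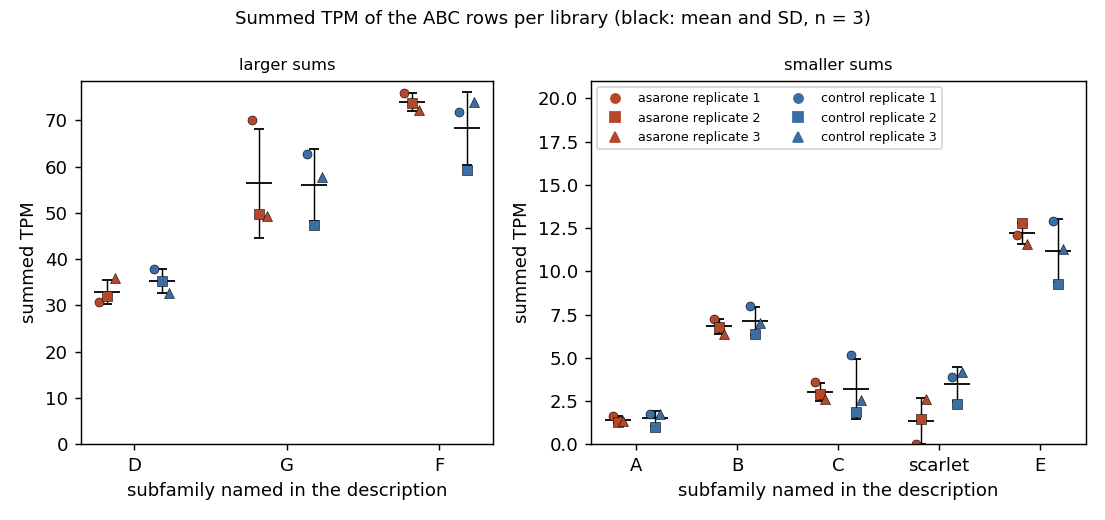
Summed TPM of all members of a subfamily in each library (coloured points), with the mean and SD of 3 libraries (black), asarone left of control; the larger sums are on the left and the smaller ones on the right, on separate linear axes from 0. Points of the groups overlap in each subfamily, and the G sum of asarone replicate 1, at 70.03 TPM, stands above the other 5 libraries.

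Subfamily A, whose mammalian members move lipids, was represented by 1 row, named member 2 (TRINITY_DN9319_c0_g1). It stood at 1.62, 1.26 and 1.37 TPM in asarone replicates 1, 2 and 3, and at 1.75, 1.01 and 1.74 TPM in control replicates 1, 2 and 3. All asarone values lay inside the control range. The log2 change was -0.04, with a 95% limma interval of -0.52 to 0.45.

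Subfamily B holds the P-glycoproteins and several mitochondrial half-transporters, and its planthopper row here was named for ABCB10. ABCB10 (TRINITY_DN4830_c0_g1), which in mammals sits in the inner mitochondrial membrane and serves heme synthesis, stood at 5.20, 4.53 and 4.48 TPM in asarone libraries and at 5.66, 3.82 and 4.48 TPM in control libraries. The groups overlapped, with a log2 change of 0.03 (95% limma interval -0.39 to 0.46) that became -0.06 after median-of-ratios scaling. A second ABCB10 row, with a coral as best hit (TRINITY_DN46250_c0_g1), averaged 0.88 ± 0.0608 TPM in asarone and 1.02 ± 0.129 TPM in control insects (SD, n = 3 each). The row named ABCB1, after the human drug exporter, had a sea urchin as best hit (TRINITY_DN21866_c0_g2) and stood at 0.507 ± 0.0551 TPM in asarone and 0.673 ± 0.0981 TPM in control insects (SD, n = 3 each).

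Subfamily C includes the multidrug resistance-associated proteins, which export organic anions and glutathione conjugates. Its planthopper row, ABCC4 isoform 3 (TRINITY_DN10979_c0_g1), stood at 2.81, 2.15 and 2.01 TPM in asarone libraries and at 3.06, 1.24 and 2.27 TPM in control libraries. The control libraries held both the highest and the lowest value, and the log2 change was 0.09 (95% limma interval -0.53 to 0.72). Of the other 3 rows, all with best hits outside planthoppers, ABCC1 (TRINITY_DN28658_c0_g1) was listed at 1.94 TPM in control replicate 1 and at 0 in the other 5 libraries. The row of a mite protein of subfamily C (TRINITY_DN33849_c0_g4) was at 0.39, 0.63 and 0.34 TPM in asarone libraries and at 0, 0.10 and 0.26 TPM in control libraries. These did not overlap, but the row was below the mean needed for a test.

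Subfamily D includes proteins that sit in the peroxisome membrane and import long and branched fatty acyl-CoA for oxidation. ABCD3 (TRINITY_DN16548_c0_g2), known in mammals as the main ABC protein of that membrane, was the most abundant transporter found. It stood at 29.4, 30.6 and 34.6 TPM in asarone replicates 1, 2 and 3, and at 35.5, 34.0 and 31.3 TPM in control replicates 1, 2 and 3. The spread of its 6 values was 7.58% of their mean, against a median of 28.5% over all tested rows. The log2 change was -0.09, with a 95% limma interval of -0.40 to 0.23, which in linear terms of TPM + 1 is 0.756 to 1.17. The other 4 subfamily D rows were below the mean needed for a test. One row named after a Nilaparvata lugens subfamily D protein (TRINITY_DN34468_c0_g1) was listed at 1.17 TPM in control replicate 1 and at 0 elsewhere.

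Subfamily G, taken here as the rows with that letter in the description, had the most rows. The scarlet and white-like rows, described further below, are not counted in it. The spread of its 7 tested rows over the libraries ran from 10.8% to 58.9% of the mean. They are described below from steady to variable, a division made after the values were seen. All 7 had Laodelphax striatellus as best hit. The 19 rows with the letter G summed to 70.03, 49.7 and 49.4 TPM in asarone replicates 1, 2 and 3, and to 62.8, 47.4 and 57.7 TPM in control replicates 1, 2 and 3. The ratio of the means was 1.01, and asarone replicate 1 was the highest library while asarone replicates 2 and 3 were above control replicate 2 alone.

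The steady rows were member 22-like, member 10 and a member 1-like row. Member 22-like (TRINITY_DN327_c0_g2), the most abundant of the subfamily, stood at 8.87, 11.7 and 10.02 TPM in asarone libraries and at 11.1, 8.97 and 10.8 TPM in control libraries (log2 change -0.02, 95% limma interval -0.40 to 0.37). Member 10 (TRINITY_DN173_c1_g1) stood at 6.54, 8.06 and 7.94 TPM in asarone libraries and at 6.15, 9.80 and 8.32 TPM in control libraries (log2 change -0.08, 95% limma interval -0.56 to 0.40). It was the one tested planthopper member with its highest value in control replicate 2. The member 1-like row TRINITY_DN23696_c0_g1 stood at 5.64, 6.49 and 5.33 TPM in asarone libraries and at 6.54, 4.98 and 6.03 TPM in control libraries (95% limma interval -0.39 to 0.38). For each of these, the asarone values lay within or close to the control range.

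The variable rows were named for members 1 and 4, which in mammals pass sterols out of cells. The member 4-like row TRINITY_DN3563_c0_g1 stood at 15.9, 4.0 and 3.70 TPM in asarone replicates 1, 2 and 3, and at 7.42, 6.10 and 8.27 TPM in control replicates 1, 2 and 3. The member 1-like row TRINITY_DN8670_c0_g1 stood at 11.8, 3.93 and 3.74 TPM in asarone libraries and at 5.90, 4.36 and 4.60 TPM in control libraries. In both rows asarone replicate 1 was above, and asarone replicates 2 and 3 were below, every control library. Their group means, 7.85 ± 6.93 TPM in asarone and 7.26 ± 1.09 TPM in control insects for the first and 6.50 ± 4.62 TPM in asarone and 4.95 ± 0.829 TPM in control insects for the second (SD, n = 3 each), therefore describe no single asarone library. Without asarone replicate 1 their log2 changes were -0.76 and -0.29, with it they were -0.16 and 0.18 (SE 0.50 and 0.41).

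In 2 other member 1-like rows the widest differences lay among the control libraries. TRINITY_DN16740_c0_g1 stood at 7.64, 4.81 and 4.76 TPM in asarone libraries and at 9.61, 2.47 and 6.97 TPM in control libraries. TRINITY_DN4662_c0_g1 stood at 8.58, 7.56 and 8.12 TPM in asarone libraries and at 10.9, 4.19 and 8.25 TPM in control libraries. In both rows control replicate 1 was highest and control replicate 2 lowest, so that all asarone values lay between the extremes of the controls. The 4 rows named member 1-like may be separate genes or parts of 1 gene, and they did not share 1 profile over the libraries.

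Of the other 12 subfamily G rows, none reached the mean needed for a test, and 9 of them had best hits outside planthoppers. The member 21-like row of a glass sponge (TRINITY_DN20839_c0_g2) was at 0.36, 0.09 and 0.15 TPM in asarone and 0.44, 0.91 and 0.44 TPM in control libraries, without overlap and at levels too low for a test. Of 2 further rows of the same Trinity component, both with a springtail as best hit, 1 had the higher mean in asarone (0.657 TPM, against 0.263 TPM in control) and 1 the lower (0.66 TPM, against 1.06 TPM in control). The 3 with planthopper hits were each at 0 in at least 1 library or varied widely: member 4 (TRINITY_DN22235_c1_g1) was at 0.85, 0.44 and 0.65 TPM in asarone and 1.06, 0.12 and 0.61 TPM in control libraries. Member 23-like (TRINITY_DN24600_c0_g1) was at 1.12, 0 and 0.30 TPM in asarone and 0.35, 0 and 0.37 TPM in control libraries. A Nilaparvata lugens subfamily G row (TRINITY_DN26943_c0_g1) was listed at 1.87 TPM in control replicate 2 and at 0 in the other 5 libraries, and a weevil row (TRINITY_DN23105_c0_g2) at 1.12 TPM in asarone replicate 3 and at 0 in the other 5. In all, 4 of the 44 members were listed in 1 library only and 10 were at 0 in at least 1 library. The row without a letter, with an ant as best hit (TRINITY_DN44110_c0_g1), averaged 0.207 TPM in asarone and 0.35 TPM in control insects.

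The scarlet rows stood lower in asarone than in control means, without a call. In Drosophila, scarlet and white form a half-transporter pair of subfamily G that loads pigment precursors into granules of the eye. The scarlet row TRINITY_DN15694_c0_g1 was listed at 0, 0 and 1.48 TPM in asarone replicates 1, 2 and 3, and at 2.52, 1.29 and 2.69 TPM in control replicates 1, 2 and 3. Its groups overlapped, through asarone replicate 3 and control replicate 2. The log2 change was -1.19 (SE 0.44, 95% limma interval -2.26 to -0.13, limma adjusted p = 0.98), and -3.11 with a pseudocount of 0.1 in place of 1. The second row, scarlet isoform X2 (TRINITY_DN15095_c0_g1), was listed at 0, 1.44 and 1.16 TPM in asarone libraries and at 1.37, 1.05 and 1.47 TPM in control libraries (log2 change -0.40, 95% limma interval -1.35 to 0.56, and -1.26 with a pseudocount of 0.1). Both were at 0 in asarone replicate 1, whereas in asarone replicate 2 the one was at 0 and the other at its highest asarone value. Their sum was 0, 1.44 and 2.64 TPM in asarone and 3.89, 2.34 and 4.16 TPM in control libraries. Among rows found by the words opsin and arrestin, 2 were visual opsins, the light receptors of the eye, both of the same Trinity component. UVopsin1 (TRINITY_DN13702_c0_g1) stood at 0.90, 1.22 and 1.04 TPM in asarone replicates 1, 2 and 3, and at 1.46, 1.25 and 1.25 TPM in control replicates 1, 2 and 3. UVopsin2 (TRINITY_DN13702_c0_g2) stood at 3.57, 2.66 and 2.77 TPM in asarone libraries and at 2.87, 1.79 and 2.74 TPM in control libraries. Asarone replicate 1 was the lowest library for UVopsin1 and the highest for UVopsin2. All 7 rows found by these words, most of their level in arrestin homologs and an arrestin domain-containing protein that are not markers of the eye alone, summed to 66.7, 60.3 and 64.7 TPM in asarone libraries and to 75.2, 56.0 and 64.7 TPM in control libraries. The part of eye tissue in the scarlet values was not tested.

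No row of the soluble subfamilies E and F was called. ABCF2 (TRINITY_DN98_c0_g1), the most abundant ABC row of all, stood at 62.1, 62.0 and 60.4 TPM in asarone libraries and at 59.0, 51.1 and 61.4 TPM in control libraries. Its log2 change was 0.11, with a 95% limma interval of -0.20 to 0.42. ABCF1 (TRINITY_DN6032_c1_g1), which in mammals acts with the initiation factor that brings the first tRNA to the ribosome, stood at 9.95, 8.40 and 7.90 TPM in asarone libraries and at 9.47, 4.84 and 8.67 TPM in control libraries (log2 change 0.21, 95% limma interval -0.40 to 0.82). Control replicate 2 was lowest for both, and without it their log2 changes were 0.03 and -0.05. ABCE1 (TRINITY_DN12645_c0_g1), which splits ribosomes after translation ends, stood at 11.2, 11.5 and 10.7 TPM in asarone libraries and at 11.7, 8.00 and 9.92 TPM in control libraries. Its log2 change was 0.17 (95% limma interval -0.23 to 0.57). A second ABCF1 row with a planthopper hit (TRINITY_DN24505_c1_g1) was below the mean for a test, at 1.21, 0.12 and 0.44 TPM in asarone libraries and 0.19, 0.15 and 0.44 TPM in control libraries, and so was an ABCF2 row with a crab as best hit (TRINITY_DN23069_c0_g1, 0.877 ± 0.265 TPM in asarone and 0.697 ± 0.339 TPM in control insects, SD, n = 3 each).

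Both subfamilies also held a tested row with a best hit outside planthoppers. An ABCE1 row with a coral as best hit (TRINITY_DN20656_c0_g1) stood at 0.89, 1.28 and 0.96 TPM in asarone and at 1.25, 1.27 and 1.40 TPM in control libraries. An ABCF2 row with a rotifer as best hit (TRINITY_DN51948_c0_g1) stood at 2.02, 2.55 and 2.41 TPM in asarone and at 2.29, 2.89 and 2.53 TPM in control libraries. Neither was low in control replicate 2, where the planthopper ABCE1 and ABCF2 rows were lowest. Over the 22 rows with other best hits, the mean level of a row had a median of 0.409 TPM and reached 2.45 TPM, against a median of 5.21 TPM and a highest mean of 59.3 TPM over the 22 rows with planthopper hits. The 22 rows with other best hits summed to 10.6, 11.6 and 13.1 TPM in asarone libraries and to 13.9, 13.4 and 12.9 TPM in control libraries. The groups overlapped through asarone replicate 3 and control replicate 3. In the whole table, 33.0% of described rows with best hits outside planthoppers reached the mean for a test, against 63.2% of those with planthopper hits. The organism that such rows come from was not tested.

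**Figure D3:**
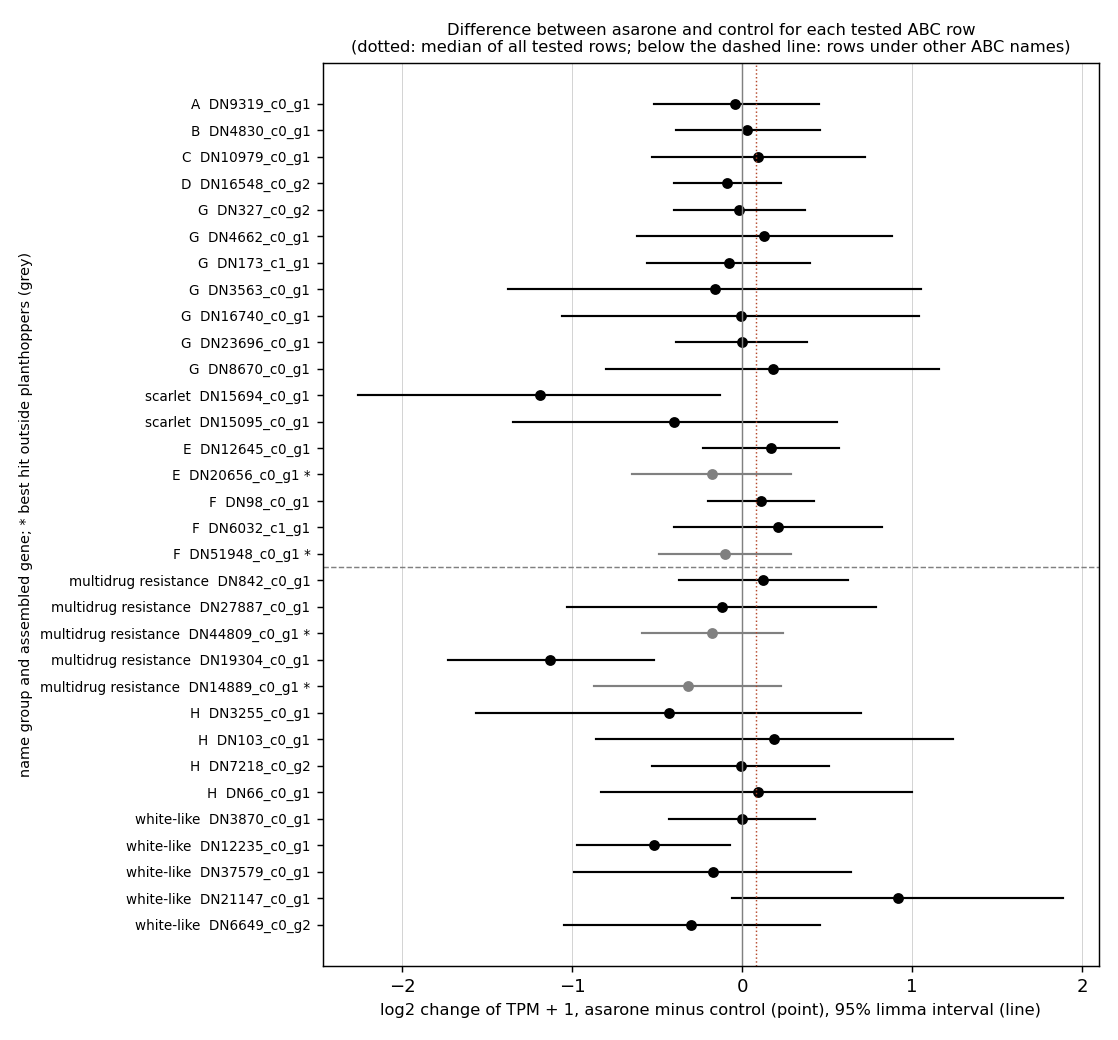
Log2 change of TPM + 1 (asarone minus control, point) with its 95% limma interval (line) for the 18 tested members above the dashed line and 14 tested rows under other ABC names below it, grey marking best hits outside planthoppers and the dotted line the median of all tested rows, 0.08. Intervals clear of 0 belong to the scarlet row DN15694_c0_g1, the multidrug resistance row DN19304_c0_g1 and the white-like row DN12235_c0_g1, none of which passed the adjusted threshold.

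ABC proteins under other names numbered 23 rows: 12 described by multidrug resistance, 6 as ABC protein subfamily ABCH and 5 as white-like. The subfamily H and white-like names were added after their values were seen. Of 14 tested rows 0 passed the limma threshold, against 0.00403% of all tested rows. At an unadjusted limma p under 0.05 there were 2, both with negative changes, against 3.47% of all tested rows. The groups did not overlap for 5 of the 14, 1 higher and 4 lower in asarone, against 4.53% higher and 4.14% lower over all tested rows. Of the 4 lower rows, 2 had best hits outside planthoppers.

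Multidrug resistance protein 49-like (TRINITY_DN19304_c0_g1), named for a Drosophila P-glycoprotein of subfamily B, stood at 0.40, 0.38 and 0.32 TPM in asarone libraries and at 2.64, 1.46 and 1.96 TPM in control libraries. Every asarone library was below every control library, at a level under 3 TPM. The log2 change was -1.13 (SE 0.25, 95% limma interval -1.73 to -0.52, limma adjusted p = 0.858), and -2.15 with a pseudocount of 0.1. Multidrug resistance-associated protein 1-like (TRINITY_DN842_c0_g1), the kind of subfamily C pump that exports glutathione conjugates, was the most abundant of these at 8.75, 7.43 and 7.22 TPM in asarone libraries and 8.98, 5.33 and 7.30 TPM in control libraries. Its groups overlapped, with a log2 change of 0.12 (95% limma interval -0.37 to 0.62).

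Subfamily H, which in some insects takes part in placing lipids in the cuticle, was represented by 4 tested rows. The most abundant (TRINITY_DN3255_c0_g1) stood at 16.5, 12.3 and 8.02 TPM in asarone libraries and at 32.7, 9.61 and 13.4 TPM in control libraries. The next (TRINITY_DN103_c0_g1) stood at 11.7, 13.5 and 10.9 TPM in asarone libraries and at 20.4, 5.16 and 10.2 TPM in control libraries. In both, control replicate 1 was higher than all other libraries, and the spread among controls exceeded any distance between the group means. The 6 subfamily H rows summed to 51.6, 41.2 and 32.5 TPM in asarone libraries and to 76.0, 28.1 and 40.2 TPM in control libraries, and the asarone sums lay inside the control range.

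The white-like rows did not move together. TRINITY_DN12235_c0_g1 stood at 2.14, 2.11 and 2.0 TPM in asarone libraries and at 3.12, 2.85 and 4.42 TPM in control libraries (log2 change -0.52, SE 0.19, limma adjusted p = 0.98). TRINITY_DN21147_c0_g1 stood at 3.17, 2.08 and 2.26 TPM in asarone libraries and at 1.19, 1.83 and 0 TPM in control libraries (log2 change 0.92, SE 0.40, limma adjusted p = 0.98, and a log2 change of 2.03 with a pseudocount of 0.1). The groups did not overlap in either, in opposite directions. The most abundant white-like row (TRINITY_DN3870_c0_g1) stood at 7.94, 6.35 and 7.46 TPM in asarone libraries and at 8.55, 5.94 and 7.39 TPM in control libraries, which overlapped fully. All 5 white-like rows summed to 14.6 ± 2.47 TPM in asarone and 15.4 ± 2.63 TPM in control insects (SD, n = 3 each).

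Genes that work beside ABC proteins were read from lists of description words. Of their tested rows 0 passed the limma threshold, against 0.00403% of all tested rows. The lipid list, of fatty acyl-CoA reductases, elongases, fatty acid synthase and lipophorin, had 8 positive and 3 negative log2 changes among 11 tested rows, a median of 0.28 and 0 rows at an unadjusted p under 0.05. That is 72.7% positive, against 62.8% of all tested rows, whose median was 0.08. Of all tested rows 3.47% had an unadjusted limma p under 0.05. After median-of-ratios scaling the list had 7 positive and 4 negative changes, with a median of 0.19. Its members included profiles like those seen in subfamilies G and H, which were not particular to these rows. Control replicate 2 was lowest in 46.2% of all tested rows, and asarone replicate 1 and control replicate 1 were highest in 28.6% and 26.6%. The sums of eye rows, of nervous system rows and of the xenobiotic enzymes described below were also highest in control replicate 1 and lowest in control replicate 2. Those of muscle, gut and male germ line rows were not, but 10 of the 14 tested muscle rows were lowest in control replicate 2. A fatty acyl-CoA reductase (TRINITY_DN3349_c0_g1), of the enzymes that make fatty alcohols for waxes, stood at 31.6, 5.32 and 4.94 TPM in asarone libraries and at 10.5, 13.9 and 12.7 TPM in control libraries. This is the order of the variable subfamily G rows, with asarone replicate 1 above and asarone replicates 2 and 3 below all controls. The most abundant reductase (TRINITY_DN388_c0_g1) stood at 61.7, 64.7 and 55.1 TPM in asarone libraries and at 109, 36.8 and 58.7 TPM in control libraries, with control replicates 1 and 2 at the extremes as in the subfamily H row TRINITY_DN103_c0_g1. Fatty acid synthase (TRINITY_DN7745_c0_g1), with the smallest p of the list, stood at 3.94, 4.32 and 3.36 TPM in asarone libraries and at 3.18, 2.63 and 3.25 TPM in control libraries, without overlap (log2 change 0.28, SE 0.16, limma adjusted p = 0.98). Cuticle protein rows summed to 18469, 6853 and 15228 TPM in asarone libraries and to 17913, 17853 and 11568 TPM in control libraries. The order of this sum was other than those of the reductases, but single cuticle rows shared them. Cuticular protein SD (TRINITY_DN976_c0_g1) stood at 156, 45.7 and 42.6 TPM in asarone libraries and at 102, 66.5 and 79.7 TPM in control libraries. A tweedle family cuticle protein (TRINITY_DN815_c0_g1) was highest in control replicate 1 and lowest in control replicate 2. Among the 42 cuticle rows, asarone replicate 2 was lowest in 23 and control replicate 2 in 8.

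**Figure D4:**
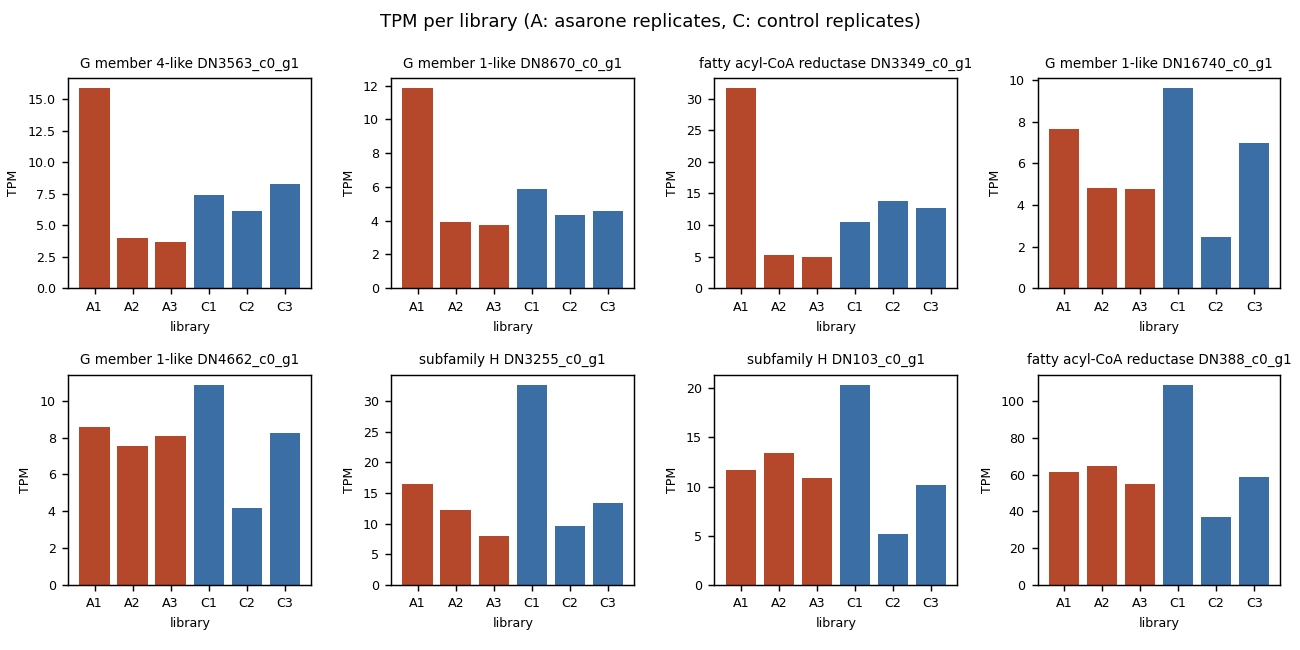
TPM of 8 rows in each library (bars, asarone libraries in orange left of control libraries in blue, linear axes from 0), chosen after their values were seen. In the first 3 panels of the upper row asarone replicate 1 is highest (15.9, 11.8 and 31.6 TPM), and in the other 5 panels control replicate 1 is highest.

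Xenobiotic enzymes of the phases before export, 92 rows of P450, glutathione transferase, UDP-glycosyltransferase, esterase and sulfotransferase, summed to 3060 ± 169 TPM in asarone and 3000 ± 341 TPM in control insects (SD, n = 3 each). Of 54 tested rows 34 had positive and 20 negative log2 changes, with a median of 0.05. That is 63.0% positive, against 62.8% of all tested rows. After median-of-ratios scaling 24 were positive and 30 negative, with a median of -0.04. At an unadjusted limma p under 0.05 there were 0 rows, against 3.47% of all tested rows. The most abundant, a CYP6ER2 row (TRINITY_DN3081_c0_g1), stood at 647, 503 and 538 TPM in asarone and 616, 482 and 571 TPM in control libraries. The smallest p was that of esterase E4 (TRINITY_DN4892_c0_g1), at 25.04, 20.1 and 17.6 TPM in asarone and 18.8, 12.5 and 15.3 TPM in control libraries. The 37 transporter members summed to a mean of 102 TPM in asarone and 107 TPM in control insects, far below the 92 enzyme rows in each library. The CYP6ER2 row alone stood above the transporter sum. That sum leaves out the 23 rows under other ABC names, which summed to a mean of 70.5 TPM in asarone and 80.3 TPM in control insects. Regulators of such genes matched 2 tested rows, both of cyclic AMP-responsive element-binding protein 1, the more abundant (TRINITY_DN233_c0_g1) at 5.28 ± 0.609 TPM in asarone and 5.71 ± 1.10 TPM in control insects (SD, n = 3 each).

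The peroxisomal list beside subfamily D had 4 tested rows, 2 with positive and 2 with negative changes, and 1 and 3 after median-of-ratios scaling. Its most abundant row, the acyl-CoA ligase bubblegum (TRINITY_DN5083_c0_g1), which activates very long fatty acids, averaged 84.9 ± 9.79 TPM in asarone and 81.5 ± 11.4 TPM in control insects (SD, n = 3 each). The smallest p belonged to peroxisomal multifunctional enzyme type 2 (TRINITY_DN958_c0_g1), a beta-oxidation enzyme, at 69.4, 58.2 and 55.4 TPM in asarone libraries and 55.6, 44.1 and 49.5 TPM in control libraries (log2 change 0.29, SE 0.15, limma adjusted p = 0.98). Asarone replicate 3 lay just inside the control range. Its change and that of ABCD3 had opposite signs, and both intervals included 0.

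The mitochondrial iron-sulfur and heme list beside subfamily B had 5 tested rows, 1 with a positive and 4 with negative changes. Cysteine desulfurase (TRINITY_DN3811_c0_g1), the sulfur donor, averaged 11.7 ± 0.62 TPM in asarone and 10.9 ± 2.18 TPM in control insects (SD, n = 3 each), and its best hit was a planthopper. The other 4 had best hits outside planthoppers. The smallest p was that of ferrochelatase, the last enzyme of heme synthesis (TRINITY_DN48147_c0_g1, best hit a soft coral), at 0.99, 1.18 and 1.04 TPM in asarone libraries and 1.40, 1.66 and 1.70 TPM in control libraries (log2 change -0.32, SE 0.17, limma adjusted p = 0.98).

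The ribosome recycling and release list beside subfamilies E and F had 6 tested rows, 2 with positive and 4 with negative changes (1 and 5 after median-of-ratios scaling), and 5 of the 6 had best hits outside planthoppers. Initiation factor 2 subunit 1 (TRINITY_DN10863_c0_g1) averaged 3.91 ± 0.162 TPM in asarone and 4.38 ± 0.815 TPM in control insects (SD, n = 3 each). Release factor subunit 1 (TRINITY_DN15803_c0_g1), which ends translation at stop codons and had the smallest p, stood at 1.58, 1.61 and 1.44 TPM in asarone libraries and 1.70, 1.86 and 2.15 TPM in control libraries, without overlap (log2 change -0.19, SE 0.16, limma adjusted p = 0.98). The eye pigment list had 1 tested row, GTP cyclohydrolase 1 (TRINITY_DN899_c0_g1), the first enzyme of pteridine synthesis, at 50.9, 30.1 and 47.2 TPM in asarone libraries and 59.2, 36.6 and 86.2 TPM in control libraries. Its groups overlapped, as did those of the scarlet rows. The other 2 rows of the list were below the mean for a test. Tryptophan 2,3-dioxygenase (TRINITY_DN10295_c0_g1) was at 0.85, 0.73 and 0.78 TPM in asarone and 0.89, 1.24 and 1.23 TPM in control libraries, without overlap. Kynurenine 3-monooxygenase (TRINITY_DN48733_c0_g1) was at 1.08, 0.77 and 0.59 TPM in asarone and 0.86, 1.25 and 1.31 TPM in control libraries, with overlap.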

How the data were processed

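Whole Laodelphax striatellus gave poly(A) RNA for strand-marked libraries, per the labels' protocols. Of software, the submitters' processing notes list HISAT2 2.0.4, StringTie 1.3.4d, cutadapt 1.9, DESeq2 and edgeR, with no role for any. Which of them produced the table, and on what genome build, is not given in the sources used here. TPM values per library are as deposited by the authors. Although the table's name says FPKM, every library adds up to one common total within rounding, which is a property of TPM. The authors' group means were not used.

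Samples were grouped by title. Rows averaging 1 TPM or more across 6 libraries were tested with limma 3.58.1 (R 4.3.3, trend and robust, two-sided) on log2(TPM + 1), the test planned for FPKM, adjusted over all 24816 tested rows. The procedure was tested on simulated data. No test was made over lists or sums. Some members below the mean for a test are not reported here by name. Libraries held identical values in 1.43% to 2.69% of tested rows, and no pair was counted as 1.

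The members and lists were chosen with earlier results of these data known. Members described with values were the most abundant planthopper row of each subfamily, those without overlap, those with an unadjusted p under 0.05 and scarlet, and from each list the most abundant row and that with the smallest p. Other rows named, among them all tested subfamily G rows, the single-library rows and the lipid rows beside them, were chosen after their values were seen. Alternatives were other pseudocounts, filters and scalings, the replicate number as a block, plain limma and leaving out each library. Figures were drawn with matplotlib 3.10.9.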

Additional observations from a re-analysis of the deposited data

How the results depend on the processing

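The 1 row called over the whole table was lost, leaving 0, with the replicate block, under each of the 3 scalings, for planthopper best hits only, at a pseudocount of 0.1, unfiltered, in rows averaging 5 TPM or more, and without each single library (0 to 0). No ABC row passed the threshold under any of these, with a smallest adjusted p of 0.429. Same-numbered libraries of the groups shared a number and no more that the labels state: their deviations from the group means correlated at 0.157, 0.0814 and -0.035, and asarone replicate 3 correlated best with control replicate 2. For the ratio of summed TPM, 1 of 10 sums moved by more than its spread between libraries: subfamily D after median-of-ratios scaling, with a log2 ratio of -0.22. Adding the subfamily H and white-like rows to the sum, and keeping planthopper best hits only in the fit, were chosen after seeing the data.

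Of 32 tested ABC rows, 20 changed sign on leaving out 1 library. Over the 6 libraries left out in turn, the log2 change ran from -0.14 to 0.29 for TRINITY_DN10979_c0_g1, -0.64 to 0.00 for TRINITY_DN15095_c0_g1, -0.48 to 0.33 for TRINITY_DN16740_c0_g1, -0.24 to 0.06 for TRINITY_DN173_c1_g1, -0.10 to 0.07 for TRINITY_DN23696_c0_g1, -0.11 to 0.07 for TRINITY_DN327_c0_g2, -0.76 to 0.16 for TRINITY_DN3563_c0_g1, -0.21 to 0.39 for TRINITY_DN4662_c0_g1, -0.08 to 0.16 for TRINITY_DN4830_c0_g1, -0.05 to 0.37 for TRINITY_DN6032_c1_g1, -0.29 to 0.43 for TRINITY_DN8670_c0_g1 and -0.19 to 0.04 for TRINITY_DN9319_c0_g1. Among the rows under other names it ran from -0.25 to 0.64 for TRINITY_DN103_c0_g1, -0.42 to 0.20 for TRINITY_DN27887_c0_g1, -0.78 to 0.05 for TRINITY_DN3255_c0_g1, -0.44 to 0.08 for TRINITY_DN37579_c0_g1, -0.12 to 0.11 for TRINITY_DN3870_c0_g1, -0.22 to 0.44 for TRINITY_DN66_c0_g1, -0.20 to 0.12 for TRINITY_DN7218_c0_g2 and -0.05 to 0.28 for TRINITY_DN842_c0_g1. The negative sign of the scarlet row TRINITY_DN15694_c0_g1 (-1.63 to -0.98) and of TRINITY_DN19304_c0_g1 (-1.26 to -0.98) was kept, and with a pseudocount of 0.1 their log2 changes were -3.11 and -2.15. Signs also turned for TRINITY_DN4830_c0_g1 under scaling by median-of-ratios (-0.06), by a trimmed mean (-0.00) and by quantiles (-0.07), for TRINITY_DN66_c0_g1 under the first (-0.00) and the last of these (-0.02), and with pseudocounts of 0.1 and 0.5 for TRINITY_DN16740_c0_g1 (0.02 and 0.01) and TRINITY_DN3870_c0_g1 (0.00 and 0.00). The cause was not tested. TPM gives no depth, so a row under 1 TPM cannot be called absent from a library that lists it at 0.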
